A study of Mus musculus with 9 samples.

Results

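Erythroblasts of Th3/Th3 mouse embryos, which lack both copies of the adult beta-globin genes, were compared gene by gene with those of wild type embryos. The comparison uses 6 of the 9 arrays of the study, 3 labelled Wild type biol rep and 3 labelled Homozygote biol rep. The other 3 arrays, from Th3/+ embryos, entered the estimate of the spread and gave each probe set a level that belongs to neither side of the comparison. Of 17742 probe sets kept after a filter on low values, 14978 had a listed gene, and single-symbol probe sets named 12898 genes.

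Th3 is a deletion allele that models beta-thalassemia. It was made in 129SV mice and backcrossed for 9 generations to C57BL/6, and all embryos came from Th3/+ parents. Wild type embryos carried no Th3 allele, Th3/+ embryos carried 1 and Th3/Th3 embryos carried 2, so Th3/Th3 embryos have no adult beta globin at all. Fetal livers were taken at E14.5, and cells with CD71, Ter119 and high forward scatter were sorted, which selects large red cell precursors. RNA (35 ng per sample) was amplified before hybridisation. Nothing in the labels tells if each replicate came from 1 embryo or from several, so the p-values measure only the spread between these samples.

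An erythroblast fills itself with hemoglobin, a tetramer of alpha-like and beta-like globin chains with heme. Where beta-like chains are missing, unpaired alpha chains precipitate in the cell, and protein quality control and antioxidant systems deal with the damage. During the same divisions a normal erythroblast condenses its nucleus, shuts down most of its genes and clears its organelles before it becomes a reticulocyte.

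Erythroblast markers had the highest mean level of the marker lists, and other lists were not all at the floor. Of the 11 erythroblast markers on the array, 0 were below the low-value floor on all 6 arrays. Their mean level per array was 11.13 to 11.24 (log2) in wild type and 10.36 to 10.62 in Th3/Th3. Of these 11, 8 fell and 0 rose, against 5.37% falling and 7.71% rising over all genes tested. Macrophage markers were near the floor, at 4.98 to 5.31 in wild type and 4.69 to 4.85 in Th3/Th3. Mrc1 and Csf1r were below the floor on all 6 arrays. Of 10 tested macrophage markers 1 fell and 0 rose, with a median change of -0.48. Of 9 hepatoblast markers 0 passed the test in either direction (levels 6.45 to 6.77 and 6.41 to 6.73), and Apob was below the floor throughout. Of 7 megakaryocyte markers 1 fell and 0 rose, with a median change of -0.33. Their mean level was 6.69 to 6.93 in wild type and 6.39 to 6.49 in Th3/Th3. The mean levels of the hepatoblast and megakaryocyte lists were above the floor, which was 4.52 to 4.61 on these arrays. For the granulocyte, lymphoid, endothelial and early progenitor lists 0 of their 5, 2, 8 and 5 tested markers passed. The part of other cell types in the results below was not tested, and in sorted bulk RNA fewer cells of a type and less RNA per cell cannot be told apart. Th3/Th3 replicate 1 stood apart from the others: the median SD of a probe set was 0.15 over the 3 Th3/Th3 arrays and 0.10 over replicates 2 and 3, against 0.12 over replicates 1 and 2, 0.13 over replicates 1 and 3, and 0.09 to 0.10 over pairs of wild type arrays. Xist was high in wild type replicate 1 and Th3/Th3 replicates 1 and 2 only, so the sexes were not balanced.

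On the scale as deposited, Th3/Th3 cells had more genes up than down. Of the called probe sets 60.5% were higher, against 51.3% with array medians centred, 52.5% with quantile normalization and 54.5% with cyclic loess. Among annotated probe sets, 1200 were higher in Th3/Th3 (8.01%) and 783 lower (5.23%; limma, adjusted p under 0.05). By gene, with the probe set of highest mean standing for each, 995 of 12898 rose (7.71%) and 692 fell (5.37%), and the median change over all genes was 0.00. A rise was typically 0.78 on the log2 scale and a fall 0.82 (medians of the genes that passed, 0.78 and -0.82). At least 2-fold were 258 of the rises and 215 of the falls, while 220 rises and 147 falls were under 1.5-fold. The arrays of the genotypes did not overlap at all for 1995 genes with higher values (15.5%) and 1599 with lower values (12.4%) in Th3/Th3, whether or not the test was passed. Of 678 genes with several probe sets of their own, 166 had at least 1 that passed and 91 had at least 2, and in 0 of those 91 did the probe sets differ in direction. Against a 1.5-fold minimum (limma's treat), 99 probe sets were higher and 79 lower.

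Places 9 to 20 by size of rise held a mix of genes, among them stress, glucose and membrane genes. Bag3, a cochaperone of HSP70, was at 6.43, 5.89 and 6.04 on the wild type arrays and at 9.06, 8.48 and 8.65 on the Th3/Th3 arrays (rise of 2.61 ± 0.19 SE, 6.11-fold, adjusted p = 8.72e-05). Srxn1, sulfiredoxin, which repairs oxidised peroxiredoxins, was at 8.10, 8.14 and 8.51 against 10.79, 10.72 and 10.94 (rise of 2.56, 5.92-fold, adjusted p = 2.99e-05). Its partner Prdx1, a peroxiredoxin, rose by 2.14 (4.39-fold, adjusted p = 8.72e-05). The choice of these genes required that the 3 Th3/Th3 arrays and the 3 wild type arrays did not overlap. For each of them the gap between the genotypes was larger than the spread within either group.

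Aldoa, aldolase of glycolysis, was at 8.85, 8.41 and 9.14 in wild type, against 11.44, 11.23 and 11.30 in Th3/Th3 (5.76-fold, adjusted p = 0.000218). Ero1a, the ER oxidase that makes disulfide bonds, rose from 7.69, 7.17 and 6.90 to 9.48, 9.33 and 9.41 (4.45-fold, adjusted p = 0.000447). Pgrmc1, a heme-binding membrane protein, rose from 4.81, 5.05 and 4.90 to 6.67, 7.54 and 7.15 (4.59-fold, adjusted p = 0.000229). Adprm rose 5.36-fold with a small spread (6.14, 6.42 and 6.42 against 8.61, 8.92 and 8.71, adjusted p = 3.59e-05). Saraf, which turns down store-operated calcium entry, rose 4.00-fold (adjusted p = 9.75e-05), Nupr1, a stress-induced chromatin protein, 4.48-fold (adjusted p = 0.00143) and Ccng1, cyclin G1, a p53 target, 4.23-fold (adjusted p = 0.00323). In Ccng1, Th3/Th3 replicate 1 (8.68) lay below replicates 2 and 3 (9.94 and 9.95), still above all wild type arrays (7.27 to 7.69).

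The small nucleolar RNAs Snord14e and Snora20 complete these places. Snord14e lies in an intron of Hspa8 and Snora20 in one of Tcp1, and signal of host and guest cannot be told apart by such probes. Neither is read as a separate result here, though both remain among the genes counted and ranked. Snora20 was below the floor on all wild type arrays (3.44, 3.64 and 3.69) and at 4.53, 6.15 and 6.80 in Th3/Th3, which bounds its rise at no less than 2.38-fold (adjusted p = 0.0176, lost in 5 of 16 alternatives). The filter on low values kept it through Th3/+ or Th3/Th3 arrays only.

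**Figure D1:**
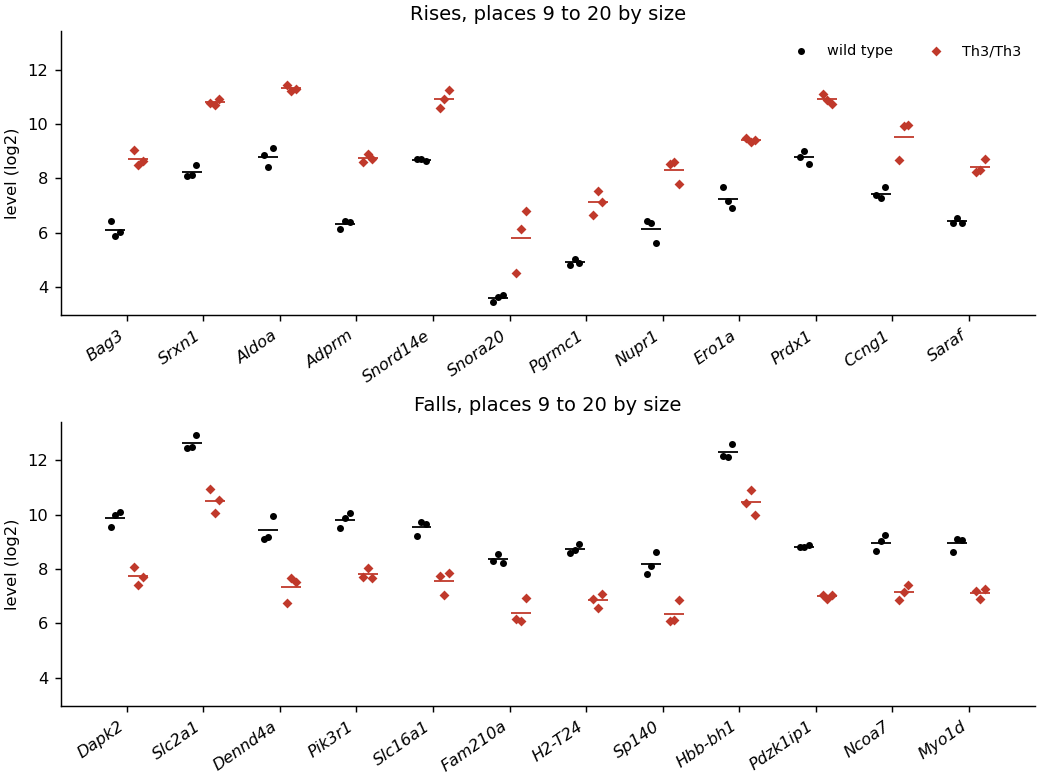
Level (log2, vertical axis) of the genes in places 9 to 20 by size of rise (top) and of fall (bottom), on each wild type array (black circles) and each Th3/Th3 array (red diamonds), with short lines at the means of 3. For all 24 genes the arrays of the genotypes do not overlap, which the choice of these genes required. Snora20 and Ccng1 have the widest spread among the Th3/Th3 arrays in the top panel.

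The falls in the same places included some membrane transport and signalling genes beside genes of other kinds. Slc2a1, the glucose transporter GLUT1, was at 12.46, 12.50 and 12.95 in wild type, against 10.94, 10.05 and 10.54 in Th3/Th3 (fell by 2.13 ± 0.20 SE, 4.37-fold, adjusted p = 0.000342). Slc16a1, the lactate transporter MCT1, fell from 9.21, 9.73 and 9.68 to 7.76, 7.03 and 7.85 (3.98-fold, adjusted p = 0.000978). The fall of both transporters stood beside the rise of Aldoa and of Tpi1, another glycolytic enzyme (9.76, 9.51 and 9.71 to 11.39, 11.47 and 11.39, 3.37-fold, adjusted p = 8.72e-05). Dapk2, a calmodulin-dependent death-associated kinase, fell 4.40-fold (adjusted p = 0.000638).

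Pik3r1 encodes the p85 regulatory subunit of PI3-kinase, which sits below the erythropoietin and KIT receptors. Its values were 9.53, 9.87 and 10.06 in wild type, against 7.71, 8.03 and 7.68 in Th3/Th3 (4.03-fold lower, adjusted p = 0.000208). Values of Hbb-bh1, a beta-like globin of the embryo, fell from 12.16, 12.14 and 12.60 to 10.45, 10.93 and 9.99 (3.58-fold, adjusted p = 0.00105). Pdzk1ip1 had the tightest values, 8.80, 8.80 and 8.89 against 7.03, 6.90 and 7.05 (3.57-fold, adjusted p = 5.11e-05). The remaining places were taken by Dennd4a, Fam210a, H2-T24, Sp140, Ncoa7 and Myo1d, with falls from 3.52-fold for Myo1d to 4.26-fold for Dennd4a. Dennd4a has a second probe set, which fell by less (-1.16 against -2.09).

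Ordered by adjusted p rather than by size, Xpo7 came first. It encodes an exportin that carries histones out of the condensing erythroblast nucleus. Its values hardly varied within a genotype: 12.59, 12.68 and 12.84 in wild type, 9.04, 8.77 and 8.95 in Th3/Th3 (fell by 3.78 ± 0.09 SE, adjusted p = 1.25e-07). The next were Hspa8, the constitutive HSP70 (11.52, 11.44 and 11.54 to 13.11, 13.06 and 13.21, adjusted p = 1.2e-05), Runx1t1, a corepressor (fell by 2.66, adjusted p = 2.08e-05), Chordc1, an HSP90 cochaperone (rose by 2.62, adjusted p = 2.13e-05), Srxn1, and Hspe1, the mitochondrial HSP10 (rose by 1.61, adjusted p = 2.99e-05). Sowaha, Pepd (peptidase D), Adprm and Fam220a complete the 10 smallest. Of these 10, 5 rose and 5 fell.

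How many probe sets passed depended strongly on their level. The 14978 annotated probe sets were ordered by their mean on the 3 Th3/+ arrays and divided into 10 equal bins, from bin 1 (lowest) to bin 10 (highest). In bin 1 (levels 3.91 to 4.79) 1.60% rose and 0.60% fell. In bin 5 (5.71 to 6.17) the shares were 6.48% and 2.34%, and in bin 8 (7.54 to 8.53) 13.8% and 7.21%. In bin 10 (10.26 to 14.10) 223 of 1498 rose (14.9%) and 240 fell. In all, 2.20% passed in bin 1 and 30.9% in bin 10.

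**Figure D2:**
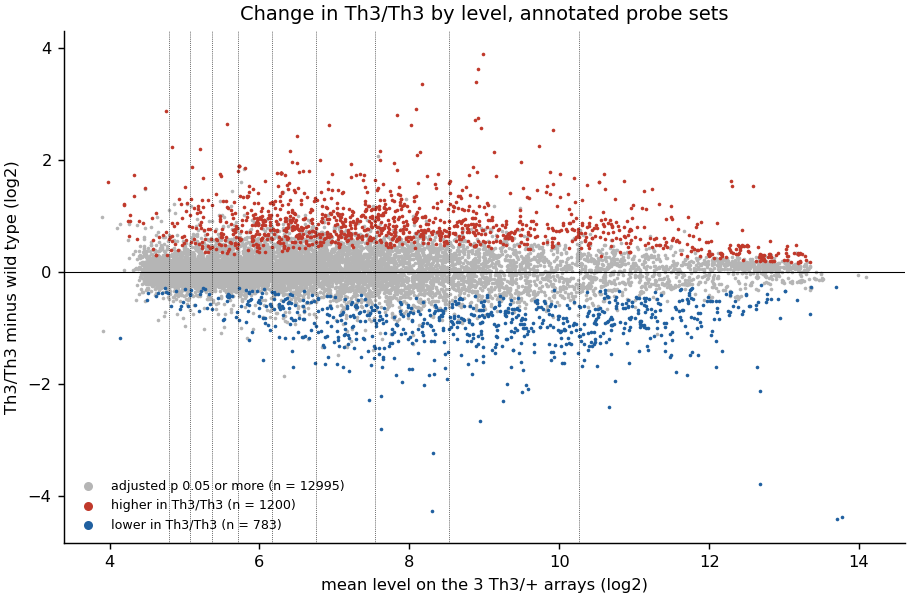
Th3/Th3 minus wild type (log2, vertical axis) against the mean level on the 3 Th3/+ arrays (log2, horizontal axis) for each of 14978 annotated probe sets; 1200 are higher (red), 783 lower (blue) and the rest grey. Dotted lines separate the 10 level bins; called changes are sparse on the left, and on the far right small rises pass the test while larger changes there are mostly falls.

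Precision and size of change both moved with level, and not in step. The median residual SD of a probe set was 0.12 in bin 1, 0.22 in bins 7 and 8, and 0.12 in bin 10. Changes of at least 1.5-fold in either direction, passed or not, made up 2.80% of bin 1, 29.2% of bin 9 and 17.9% of bin 10. The smallest change that passed was 0.17 in bin 10 and 0.43 in bin 8. The median rise in bin 10 was 0.48, against 0.82 in bin 8 and 0.87 in bin 5. The median fall was -0.76 in bin 10 and -0.96 in bin 8. At least 2-fold were 20 rises and 66 falls in bin 10, against 30 and 4 in bin 5.

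The balance of rises and falls by level depended on which arrays gave the level. Ordered by the Th3/+ level, 73.5% of the calls in bin 5 and 48.2% in bin 10 were rises. With array medians centred, with cyclic loess and with quantile normalization the share in bin 10 was 36.6%, 37.7% and 40.9%. With the wild type level they were 83.8% and 44.8%, with the mean of the 6 compared arrays 62.4% and 56.7%, and with the Th3/Th3 level 49.2% and 65.3%. A probe set that is high in Th3/Th3 because it rose is sorted upward by the last of these measures. The rise of the share called with level did not depend on the measure: with the 3 other measures 1.34% to 2.80% passed in bin 1 and 29.6% to 30.2% in bin 10.

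**Figure D3:**
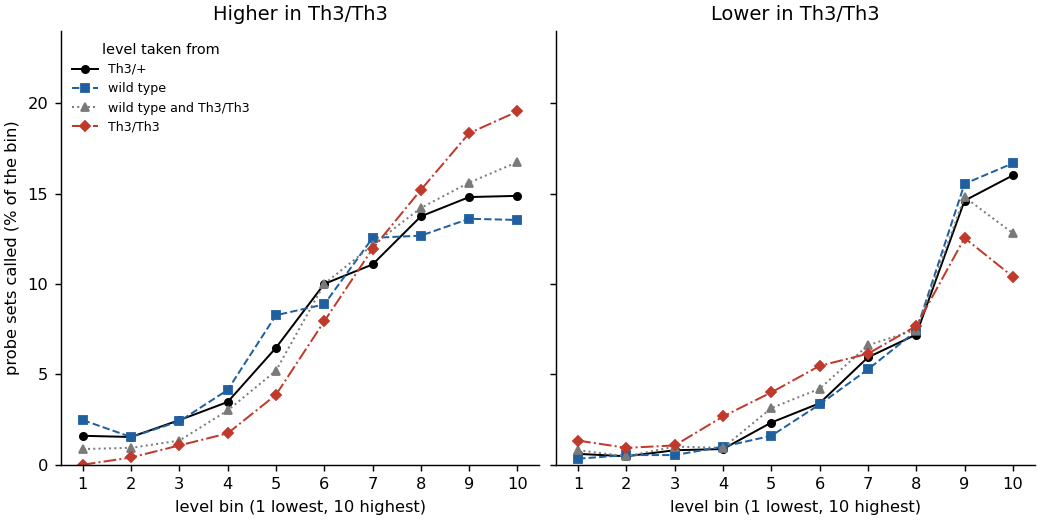
Share of annotated probe sets higher (left panel) or lower (right panel) in Th3/Th3, in percent of each of the 10 level bins, with the level taken from the Th3/+ arrays, the wild type arrays, the 6 compared arrays or the Th3/Th3 arrays (lines). Each line climbs from under 3% in bin 1; in bin 10 the share of rises runs from 13.6% (wild type level) to 19.6% (Th3/Th3 level) and that of falls from 10.4% (Th3/Th3 level) to 16.7% (wild type level).

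In bin 1 the largest rises were of Jun, an AP-1 transcription factor, Slc25a36, a mitochondrial pyrimidine nucleotide carrier, and Slc7a11, the cystine transporter. Jun was at 4.92, 4.50 and 4.49 in wild type, against 7.77, 7.15 and 7.58 in Th3/Th3 (rise of 2.87, adjusted p = 7.45e-05), with 1 of its 3 wild type arrays above the floor. Slc7a11 was below the floor on every wild type array (3.84, 4.05 and 3.92) and at 5.45, 5.54 and 5.62 in Th3/Th3, so its rise is at least 1.95-fold (adjusted p = 5.86e-05). Slc25a36 was below the floor in wild type as well, with a rise of at least 2.04-fold (adjusted p = 0.000248). The filter on low values kept Slc7a11 and Slc25a36 through Th3/+ or Th3/Th3 arrays only, so their selection is not independent of the rise. Probe sets this close to the floor can pass that filter through the arrays of a single genotype. Apol10a and Fscn3 were below the floor on all Th3/Th3 arrays, so their falls are at least 1.19-fold and 1.16-fold (adjusted p = 0.0147 and 0.00672). They were kept through wild type or Th3/+ arrays only. Ctbs fell by 0.43 (adjusted p = 0.0464), a call lost in 10 of 16 alternatives.

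In bin 5 Zfp36, which promotes decay of AU-rich mRNAs, rose from 5.71, 5.67 and 5.39 to 7.40, 7.27 and 7.65 (adjusted p = 8.72e-05), followed by Pja1, a RING ubiquitin ligase (1.795), and Msantd4 (1.62). Tns1, an actin-binding adaptor (-1.57, adjusted p = 0.0249), Cpeb3, an mRNA-binding protein (-1.21), and Hif3a, an inhibitory HIF subunit (-1.08), fell most. The call of Tns1 was lost in 5 of 17 alternatives. Among the ranked genes of bin 10 Tpi1, Hspa8 and Hspe1 rose most, and Xpo7, Cd82, a tetraspanin, and Slc2a1 fell most. The rankings in bins 1, 5 and 10 hold only single-symbol probe sets that passed without overlap of arrays, with predicted genes left out. Of 137 probe sets above a wild type level of 13, 14 were higher and 8 lower. In bin 10 by wild type level, 13.6% rose and 16.7% fell. The wild type level belongs to 1 side of the comparison, and the highest value of an annotated probe set on the 6 arrays was 14.2. Of the 137, 0 were higher by 1.5-fold, where the largest difference upward was 0.34, and 3 were lower by 1.5-fold, the lowest at -4.42. That lowest probe set fell by more than Xpo7 and is outside these rankings.

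Changes were also set against 48 lists of genes for cell processes, which hold 2085 different measured genes. More members rose than fell in 24 lists, more fell than rose in 16, and 39 lists had members in both directions. The shares over all genes, 7.71% rising and 5.37% falling, are the background for every list. They take no account of level, and many lists have their median Th3/+ level in bins 7 to 9. Of the annotated probe sets in bins 7, 8 and 9, 11.1%, 13.8% and 14.8% rose, and 5.95%, 7.21% and 14.6% fell. No list was tested as a set, and each is described by its counts and median. Counts of 7 or fewer often moved by over 1.5 times when 1 array was left out, and for the lists with more calls the arrays that did so are named.

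**Figure D4:**
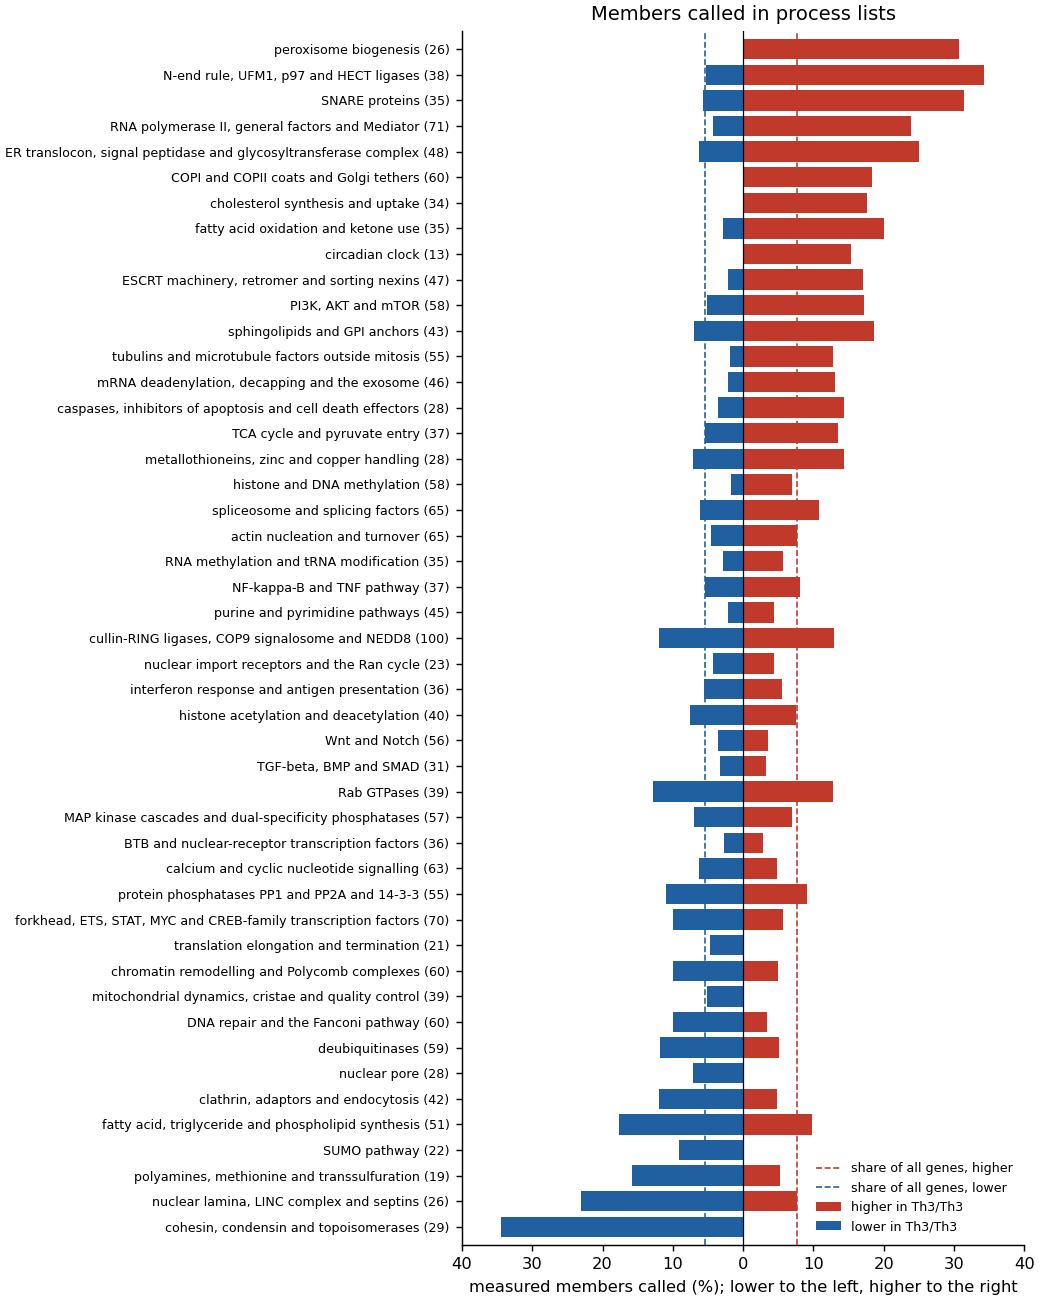
Share of the measured members (number in brackets) that were higher (red, to the right) or lower (blue, to the left) in Th3/Th3 in each process list shown, in percent, ordered by the difference of the shares. Dashed lines give the shares over all 12898 genes, 7.71% higher and 5.37% lower; peroxisome biogenesis (30.8% higher, 0 lower) is at the top and the list of cohesin, condensin and topoisomerases (34.5% lower, 0 higher) at the bottom.

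Of the 8 families of lists, that of membrane traffic between ER, Golgi and endosomes had the largest share of rises. Its 6 lists hold 271 genes, of which 49 rose (18.1%) and 16 fell (5.90%), with a median change of 0.19. SNARE proteins, which fuse vesicles with their targets, had 11 rises and 2 falls among 35 members and a median of 0.41. Stx4a, a syntaxin of the plasma membrane, was at 7.60, 7.37 and 7.13 in wild type, against 8.69, 9.33 and 9.57 in Th3/Th3 (rise of 1.82, 3.54-fold, adjusted p = 0.00119). Bet1, of vesicles from ER to Golgi, rose from 6.91, 7.69 and 7.06 to 8.65, 9.06 and 8.86 (3.11-fold, adjusted p = 0.00151). Bet1l and Vamp4, of the Golgi and trans-Golgi network, rose by 1.17 and 1.21, while Vamp8, of late endosomes, and Stx2 fell by 0.39 and 0.33. Without Th3/Th3 replicate 1 the count was 13 and 1, it was lowest, 6 and 1, with wild type replicate 1 or Th3/Th3 replicate 3 left out, and it was 7 and 1 without wild type replicate 2.

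The COPI and COPII coats and Golgi tethers had 11 rises, 0 falls and a median of 0.36 among 60 members, and 48 of the 60 had a positive change. Trappc4, of the TRAPP tethering complex, was at 7.61, 7.93 and 8.27 against 9.63, 9.53 and 9.52 (3.08-fold, adjusted p = 0.000538). Sar1b, the GTPase that starts a COPII coat, rose by 1.18, and the COPI subunits Copb1 and Cope by 0.77 each. The count fell to 3 without wild type replicate 2, to 5 with wild type replicate 1 or Th3/Th3 replicate 3 left out, and was 10 without Th3/Th3 replicate 1. The falls stayed at 0 in these. Cyclic loess gave 10 rises and 1 fall.

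In the list of the ER translocon, signal peptidase and oligosaccharyl transferase, 12 of 48 rose and 3 fell (median 0.19). The signal recognition particle gave 4 of the rises (Srp68 1.03, Srp14 0.81, Srp9 0.62, Srp19 0.60), signal peptidase 3 (Sec11c 0.90, Sec11a 0.78, Spcs1 0.48), and the transferase Dad1 (0.78) and Rpn1 (0.66). The 3 that fell, Tram1 (-0.93), Sec62 (-0.65) and Tusc3 (-0.63), are membrane proteins at the translocon or of the transferase. The rises numbered 6 without wild type replicate 2, and 7 with wild type replicate 1 or Th3/Th3 replicate 3 left out. ESCRT, retromer and sorting nexins had 8 rises and 1 fall among 47 (median 0.25), with Snx6 (1.28) and the ESCRT-0 partners Stam2 (1.02) and Hgs (0.61). The rises numbered 3 with wild type replicate 1 or Th3/Th3 replicate 3 left out, 4 without wild type replicate 2, and 5 with wild type replicate 3 or Th3/Th3 replicate 2 left out. Of 42 members of the clathrin and endocytosis list 2 rose and 5 fell (3 without wild type replicate 3), among them Ap2a2 of the AP-2 adaptor (-1.005), Eps15 (-0.91) and Flot2 (-0.85). Of 39 Rab members 5 rose and 5 fell (1 and 2 without wild type replicate 3).

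p97 is the ATPase that pulls ubiquitinated proteins out of membranes and complexes. In the list of the N-end rule, UFM1, p97 and HECT ligases 13 of 38 rose (34.2%) and 2 fell (median 0.24). Ubxn4, which recruits p97 to the ER, was at 8.44, 8.23 and 8.54 in wild type, against 9.73, 10.60 and 10.52 in Th3/Th3 (3.67-fold, adjusted p = 0.000938). Nsfl1c, the p47 cofactor, rose from 8.40, 8.37 and 8.49 to 9.74, 9.86 and 10.19 (2.85-fold, adjusted p = 0.00287). Vcp, p97 itself, rose by 0.56, its core cofactors Nploc4 and Ufd1 by 0.70 and 0.62, and Ufm1, a ubiquitin-like modifier of ER ribosomes, by 1.26. The HECT ligase Herc1 (-0.93) and the UFM1 ligase partner Cdk5rap3 (-0.94) fell. The rises numbered 13 without Th3/Th3 replicate 1, 8 without wild type replicate 1 and 7 without Th3/Th3 replicate 3.

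Other parts of protein turnover were split. Of 100 cullin-RING and COP9 members 13 rose and 12 fell (median 0.08). Of 9 Cops genes, subunits of the COP9 signalosome, which removes NEDD8 from cullins, 5 rose: Cops4 was at 8.52, 8.30 and 8.40 against 9.53, 9.46 and 9.56 (2.16-fold, adjusted p = 0.00354), and Cops5, Cops7b and Cops8 rose by 0.78 to 0.89 and Cops9 by 0.34. Gps1, a further subunit, rose by 0.63. The falls included F-box and kelch substrate adaptors such as Fbxo34 (-1.17), Klhl12 (-1.14) and Fbxo5 (-0.83), though Klhl24 (1.58) and Kbtbd4 (1.30) rose. The falls numbered 6 or 7 without any 1 of the wild type arrays or without Th3/Th3 replicate 2, and 6 with only the 6 arrays fitted. Of 59 deubiquitinases 3 rose and 7 fell, with Usp7 at 11.30, 11.29 and 11.45 in wild type, against 10.13, 10.05 and 10.33 in Th3/Th3 (fell by 1.17, adjusted p = 0.000218), and Usp31 and Usp32 lower by 1.54 and 1.52. Quantile normalization gave 12 falls in that list leaving out wild type replicate 3 gave 3, and leaving out wild type replicate 2 or fitting only the 6 arrays gave 4. The count was 5 rises and 4 falls without Th3/Th3 replicate 1.

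In the list of the polymerase, general factors and Mediator 17 of 71 rose (23.9%) and 3 fell (median 0.27), and 50 of the 71 changes were positive. Polr2i, the RPB9 subunit, was at 8.51, 7.998 and 8.33 in wild type, against 9.58, 9.51 and 9.52 in Th3/Th3 (2.39-fold, adjusted p = 0.00146). Polr2g (1.12), Polr2f (0.83), Polr2e (0.62), Polr2d (0.51) and Polr2j (0.42) rose too. Among general factors Taf7 and Taf9 of TFIID rose by 1.12 and 1.03, Gtf2b, TFIIB, by 0.64, and both subunits of TFIIF (Gtf2f1 0.42, Gtf2f2 0.71). Of 30 Med genes, subunits of Mediator, 5 rose (Med10, Med31, Med4, Med21 and Med20, by 0.73 to 1.59) and 2 fell, Med12 (-1.13) and Med13l (-0.78), the second of which is not in the list and was named after its value was seen. Cdk8, the kinase of Mediator, fell by 0.55. The elongation factor Ell2 fell by 0.68. The rises numbered 15 without Th3/Th3 replicate 1, 11 without wild type replicate 1, 9 without wild type replicate 2 or 3 or Th3/Th3 replicate 2, and 10 with only the 6 arrays fitted.

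Other RNA lists were closer to the shares over all genes. Of 65 spliceosome members 7 rose (10.8%) and 4 fell (6.15%). The median level of that list lies in bin 9, where 14.8% of annotated probe sets rose and 14.6% fell. The rises were in Mbnl2 and small nuclear ribonucleoprotein genes (Snrpb2 0.96, Snrpa1 0.91, Snrpa 0.89, Snrpc 0.71) with Prpf6, and the falls in regulators (Srsf4 -0.68, Srsf5 -0.52, Hnrnpd -0.51, Mbnl1 -0.83). Of 46 genes of deadenylation, decapping and the exosome 6 rose, among them the CCR4-NOT genes Cnot6l (0.94) and Cnot7 (0.88), and 1 fell, Pabpc1, the poly(A)-binding protein (-0.75, adjusted p = 0.000517). Of 28 nuclear pore members 0 rose and 2 fell, Nup210 (9.53, 9.16 and 9.65 to 8.22, 7.98 and 8.15, adjusted p = 0.0015) and Ahctf1 (-0.80). Of 21 translation elongation genes 1 passed, Eef2k, the kinase that slows elongation (8.75, 8.36 and 9.17 to 6.95, 6.97 and 7.21, adjusted p = 0.000901).

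In the list of cohesin, condensin and topoisomerases 10 of 29 fell (34.5%), 0 rose and the median was -0.51. The median level of the list lies in bin 9, where 14.6% of annotated probe sets fell. Top1 was at 11.31, 11.41 and 11.64 in wild type, against 9.84, 10.23 and 10.47 in Th3/Th3 (fell by 1.27, adjusted p = 0.00128). Top2a, which untangles sister chromatids, was at 11.54, 11.73 and 11.78 against 10.79, 11.08 and 11.08 (fell by 0.70, adjusted p = 0.00396). Condensin gave Smc2 (-0.75), Smc4 (-0.65), Ncapg (-0.76) and Ncapg2 (-0.68), and cohesin Rad21 (-0.51), Stag2 (-0.73) and its acetyltransferase Esco2 (-0.57). The median against wild type was -0.83, -0.29 and -0.36 in Th3/Th3 replicates 1, 2 and 3, so replicate 1 was the lowest. Without it 6 fell and 1 rose (median -0.34). The falls numbered 3 without wild type replicate 2, 4 without wild type replicate 3, 4 with only the 6 arrays fitted and 6 without wild type replicate 1.

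The nuclear envelope and septin list had 6 falls and 2 rises among 26 (23.1% lower, median -0.02). Lbr, the lamin B receptor that ties heterochromatin to the envelope, was at 11.58, 11.81 and 11.73 against 10.96, 10.78 and 11.33 (adjusted p = 0.0107), and Tmpo and Sun1 fell by 0.71 and 0.75. Septin1 fell from 7.70, 7.24 and 7.59 to 5.76, 6.25 and 5.96 (2.87-fold, adjusted p = 0.000504), and Septin8 by 0.92. The median sat at 0 because the members that did not pass were spread to both sides. Leaving out wild type replicate 1 or 3 gave 4 falls.

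Of 60 chromatin remodelling and Polycomb members 3 rose and 6 fell: the ATPase Chd7 fell by 1.32, the histone chaperone Rbbp4 by 0.90 and heterochromatin proteins Cbx5 and Cbx3 by 0.61 and 0.64, while the helicases Ruvbl1 and Ruvbl2 rose by 0.93 and 0.48. Without Th3/Th3 replicate 1 that count was 5 and 5, with array medians centred it was 2 and 10, and the falls were 3 without wild type replicate 3. Of 60 DNA repair genes 2 rose (Polb 0.97 and Apex1 0.77, both of base excision repair) and 6 fell, Brca2 most (-1.17). The falls there numbered 1 to 3 when any 1 array was left out and 0 with only the 6 arrays fitted, where 2 rose. Of 58 histone and DNA methylation genes 4 rose and 1 fell, with the demethylases Kdm5b (1.26) and Kdm7a (-1.28) moving apart. Of 40 acetylation genes 3 rose and 3 fell, among them Kat8 (1.12) and Sirt1 (8.07, 8.14 and 8.33 to 6.60, 7.13 and 7.02, adjusted p = 0.00202).

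Peroxisome biogenesis had 8 rises and 0 falls among 26 (30.8%, median 0.22) at modest levels. Pex13, of the import channel, was at 5.70, 6.42 and 5.97 in wild type, against 7.18, 7.75 and 7.40 in Th3/Th3 (2.66-fold, adjusted p = 0.00308), and Pex16 and Pex3, which place peroxisomal membrane proteins, rose by 0.92 and 0.62. The rises numbered 6 without Th3/Th3 replicate 1, 3 without wild type replicate 2, 4 without wild type replicate 1, and 5 with wild type replicate 3 or Th3/Th3 replicate 2 left out. Fatty acid oxidation had 7 rises and 1 fall among 35 (median 0.21), among them the carnitine carrier Slc25a20 (5.16, 4.90 and 6.10 to 6.996, 6.99 and 6.61, adjusted p = 0.011), Cpt2 (0.80), the dehydrogenase Acadvl (0.90) and Etfdh (0.97), which passes the electrons on. The call of Acadvl was lost in 5 of 17 alternatives. Acadsb, which acts on a branched short chain, fell by 0.96. The rises numbered 4 without wild type replicate 1, wild type replicate 2 or Th3/Th3 replicate 2.

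Cholesterol genes had 6 rises and 0 falls among 34 (median 0.18): Idi1 (1.39), Pmvk (0.96) and Hsd17b7 (0.51) are enzymes, Insig1 (7.96, 7.90 and 7.85 to 8.87, 8.76 and 9.49, adjusted p = 0.00434) and Insig2 (1.12) hold SREBP in the ER, and Mbtps1 (0.83) cuts it. The call of Mbtps1 was lost in 6 of 17 alternatives. The rises numbered 2 without wild type replicate 1 or 2 and 3 without Th3/Th3 replicate 2. Synthesis and storage of fatty acids and phospholipids ran both ways, with 5 rises and 9 falls among 51 (17.6% lower). Plin2, which coats lipid droplets, fell from 11.15, 10.999 and 11.42 to 9.95, 9.80 and 10.01 (2.41-fold, adjusted p = 0.000277). Mgll, a monoglyceride lipase, fell by 1.56 and Scd1, the stearoyl-CoA desaturase, by 0.89. Pnpla2, the lipase that opens lipid droplets, rose by 1.33, and Cds2, which makes CDP-diacylglycerol, from 7.43, 7.65 and 7.56 to 9.48, 9.43 and 9.70 (3.98-fold, adjusted p = 0.000434). The falls numbered 4 without wild type replicate 2 or 3, and 5 without wild type replicate 1 or with only the 6 arrays. The rises numbered 3 without any 1 of the wild type arrays or without Th3/Th3 replicate 2.

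In the TCA list 5 of 37 rose and 2 fell: Mpc1, of the pyruvate carrier, rose by 1.01, and Pcx, pyruvate carboxylase, fell from 8.04, 7.92 and 8.83 to 6.60, 6.39 and 6.60 (3.33-fold, adjusted p = 0.00144), with Ogdh lower by 1.15. Of 43 sphingolipid and GPI anchor genes 8 rose and 3 fell. Pigx, of the first mannosyltransferase of the anchor, rose from 4.82, 4.85 and 4.95 to 6.37, 6.68 and 6.74 (adjusted p = 0.000922), while Pigq, which acts at the first step, fell by 0.99. The rises in that list numbered 2 to 5 when an array other than Th3/Th3 replicate 1 was left out, 6 without that one, 2 with only the 6 arrays, and 4 with quantile normalization or centred medians. Of 39 genes of mitochondrial dynamics and quality control 0 rose and 2 fell, Trak2 (-1.33), an adaptor for mitochondrial transport, and Htra2 (-0.77). Purine and pyrimidine (2 rose and 1 fell of 45), polyamine and methionine (1 and 3 of 19) and metal handling genes (4 and 2 of 28) gave few calls.

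In the list of PI3K, AKT and mTOR 10 of 58 rose and 3 fell (17.2% higher, median 0.07). The rises included genes of the lysosomal platform for mTORC1: Lamtor1 (1.18), Lamtor2 (0.51), Lamtor3 (9.99, 10.02 and 9.78 to 10.74, 10.53 and 10.73, adjusted p = 0.00314), Lamtor5 (0.70), Rragc (0.67) and Flcn (0.97). Eif4ebp1, a target and translation inhibitor, rose by 0.98, and Rragd fell by 0.85, beside the fall of Pik3r1. The rises numbered 6 without wild type replicate 2. In the list of the phosphatases PP1 and PP2A and 14-3-3 proteins 5 of 55 rose and 6 fell (10.9% lower). Of 13 circadian clock genes 2 rose (15.4%) and 0 fell. Without wild type replicate 2, or with only the 6 arrays fitted, 0 of the clock genes rose. The remaining signalling lists had at most 4 calls in either direction. Single strong movers in them were Map4k5, a kinase upstream of JNK (10.46, 10.67 and 10.85 to 8.99, 8.97 and 8.99, adjusted p = 8.72e-05), Nkiras1, an inhibitor of NF-kappa-B (rise of 2.64, with wild type replicate 3 below the floor), Adcy7, an adenylate cyclase (-1.14), Isg20, an interferon-induced exonuclease (-1.63), and Adam10, a sheddase of Notch (-1.15). MAP kinase genes (4 and 4 of 57), TGF-beta (1 and 1 of 31), NF-kappa-B (3 and 2 of 37), interferon (2 and 2 of 36) and Wnt and Notch (2 and 2 of 56) moved in both directions.

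Actin genes (5 and 3 of 65) and tubulin and motor genes (7 and 1 of 55, with dynein and dynactin subunits Dynlt3, Dctn3, Dctn5 and Dynlrb1 rising by 0.45 to 0.99) had medians of -0.05 and 0.00. Cell death effectors had 4 rises and 1 fall of 28, led by Pdcd4 (1.42). Among forkhead, ETS, STAT, MYC and CREB factors 4 of 70 rose and 7 fell: Mxd4 and Mga, partners of MAX that oppose MYC, rose by 1.53 and 0.92, and Elf1 (-0.98), Foxm1 (-0.85) and Sp3 (-0.75) fell.

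Genes were also grouped by the letters of their symbols, with no reference to function. Of 214 such groups of at least 8 genes, 49 had no call, 62 had only rises, 46 only falls and 57 both. The shares over all genes, 7.71% rising and 5.37% falling, are the background here too, and they take no account of level. The largest shares of rises were in Psmb, core subunits of the proteasome (7 of 11), Emc, the ER membrane protein complex (5 of 8), Cops (5 of 9), Psmd, the proteasome cap (7 of 14), and Ubxn, adaptors of p97 (4 of 8). None of these 5 groups had a fall in the values as deposited. Psmb3 was at 10.64, 10.67 and 10.50 against 11.87, 11.96 and 11.87 (adjusted p = 8.72e-05), and Emc4 at 6.62, 6.65 and 7.16 against 7.91, 7.89 and 8.02 (adjusted p = 0.00321). Of 27 Polr genes, subunits of the RNA polymerases, 11 rose. Over 16 alternatives the rises numbered 6 to 7 in Psmb, 4 to 6 in Emc and Cops, 6 to 9 in Psmd, 3 to 4 in Ubxn and 5 to 13 in Polr, with at most 1 fall in Psmb or Polr.

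The largest shares of falls were in Sp (3 of 8), Akap, anchors of protein kinase A (3 of 8), Marchf, membrane-bound ubiquitin ligases (4 of 11), Septin (3 of 9) and Pip (3 of 9). The letters Sp join unrelated genes, and Sp3os, antisense to Sp3, cannot be told apart from it where strand is not known. Marchf3 fell from 9.12, 9.15 and 9.41 to 8.09, 7.76 and 7.49 (adjusted p = 0.000798) and Pip5k1b, a phosphoinositide kinase, by 1.15. Of 27 Kif genes, motors of spindle and transport, 0 rose and 7 fell (3 to 7 over the alternatives, with at most 1 rise). Zfp, the largest set of zinc fingers, had 23 rises (10.5%) and 7 falls (3.20%) among 219, with 13 to 39 and 1 to 7 over the alternatives. Solute carriers (Slc) had 17 rises (7.05%) and 25 falls (10.4%) among 241, with 10 to 22 and 19 to 28. Over all genes 7.71% rose and 5.37% fell.

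Gene length along the chromosome went with direction, a pattern noticed after the values were seen. Genes with a length in the RefSeq table were divided into 4 equal groups by Th3/+ level and into 4 by span. In the brightest group, of 706 short genes (span up to 7.31 kb) 141 rose and 55 fell (7.79%), with a median change of 0.14. Of 768 long genes (from 44.6 kb) 33 rose (4.30%) and 192 fell, with a median of -0.26. Without the split by level the shares were 7.91% and 3.16% in the shortest group and 3.79% and 8.32% in the longest.

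**Figure D5:**
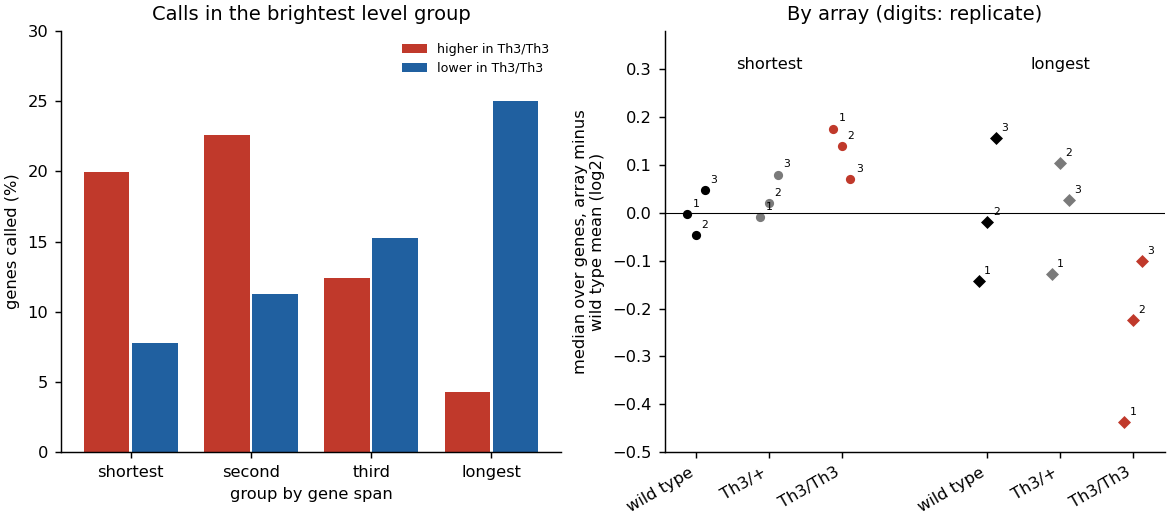
Left, percent of genes higher (red) or lower (blue) in Th3/Th3 in 4 groups by gene span, among the brightest of 4 groups by level; falls climb from 7.79% in the shortest group to 192 of 768 genes in the longest, and rises drop to 4.30% in the longest group. Right, for the shortest and longest of these, the median over genes of each array minus the wild type mean (log2), by genotype and replicate; among long genes Th3/Th3 replicate 3 at -0.10 lies within the wild type range of -0.14 to 0.16.

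By array the pattern was less even. The median of the long bright genes against the wild type mean was -0.44, -0.22 and -0.10 on Th3/Th3 replicates 1, 2 and 3, and -0.14, -0.02 and 0.16 on the wild type arrays. Th3/Th3 replicate 3 therefore overlapped wild type replicate 1. The short bright genes were at 0.18, 0.14 and 0.07 in Th3/Th3 and at 0.00, -0.05 and 0.05 in wild type, without overlap of these genotypes. On the Th3/+ arrays they were at -0.01, 0.02 and 0.08, so Th3/+ replicate 3 lay above Th3/Th3 replicate 3. Without Th3/Th3 replicate 1, the array with the lowest long genes, the long bright genes still had more falls than rises (22.01% and 5.599%) and the short ones more rises than falls (17.1% and 10.3%). Leaving out wild type replicate 3 gave 16.7% of the long ones falling. With protein-coding genes only, the shares were 26.8% of long genes falling and 21.8% of short genes rising.

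Long bright genes that fell included Xpo7 (span 109 kb), Runx1t1 and Cd36, a fatty acid transporter. Long genes that rose were fewer and included the antioxidant genes Gsr, glutathione reductase (8.90, 8.51 and 9.02 to 9.93, 9.88 and 10.31, adjusted p = 0.00223), Txnrd1, thioredoxin reductase (rise of 1.39, adjusted p = 0.0024), and Pir (0.96). Short genes that rose included Hspe1, Srxn1 and Hspa1a. Short genes that fell included Tspo2, an erythroid membrane protein (11.52, 11.60 and 11.55 to 10.40, 10.11 and 9.93, adjusted p = 0.000215), Pdzk1ip1, Hbq1a and Ube2c (-0.99). Lists differ in span too: the median was 45.4 kb for cohesin, condensin and topoisomerases, 17.5 kb for the polymerase and Mediator list, 24.8 kb for SNARE proteins and 50.1 kb for the p97 list, whose share of rises was the highest.

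Promoter letters were compared in the same sets, over 250 bases before and 50 after each start in RefSeq sequence (GRCm38.p6). Of the 12898 genes, 10233 had a promoter in that table, 12795 promoters in all. Each motif was searched on both strands. The heat shock element was taken as 3 alternating blocks of GAA and TTC, each 2 bases apart, and the ETS motif as CCGGAAGT. The stretches below show them in genes that rose with small adjusted p, chosen after the values were seen, with capitals marking the motif and all sequences written 5′ to 3′ on the strand of the gene. Hspe1 has overlapping elements at chr1:55088044-55088091 (plus strand), and Tbr1, a T-box factor, has 1 at chr2:61804255-61804297 (plus strand). Pomp, a proteasome assembly factor, has the ETS letters at chr5:147860563-147860600 (plus strand).
Hspe1: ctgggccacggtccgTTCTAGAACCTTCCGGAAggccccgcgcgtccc
Tbr1: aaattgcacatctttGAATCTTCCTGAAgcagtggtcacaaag
Pomp: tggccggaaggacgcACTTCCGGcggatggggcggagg

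The heat shock element was in 0.47% of all promoters, in 1.38% of those of genes that rose and 0.41% of those of genes that fell. In the brightest of the 4 level groups alone, 0.78% of 3331 promoters held the element, 2.32% of the 475 of genes that rose (11 promoters) and 0.38% of the 527 of genes that fell (2 promoters). The ETS letters were in 7.28% of all promoters, 13.6% of those of risers and 4.61% of those of fallers, and in the brightest group in 11.1%, 14.9% and 5.31%. The GATA letters AGATAA or TGATAA ran the other way, at 10.4% in the brightest group, 9.05% for its risers and 74 of 527 promoters for its fallers.

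The other motifs differed less. In the brightest group, the antioxidant response letters TGACNNNGC were in 534 of 3331 promoters, 19.8% for risers and 17.3% for fallers, and CCAAT in 40.5%, 40.2% and 37.4%. The hypoxia core ACGTG was in 28.3%, 29.9% and 28.3%. It lies inside every E-box CACGTG, which was in 11.4% of promoters, 12.2% for risers and 58 of 527 for fallers. The letters TGATGNAA, of ATF4 with a C/EBP partner, were in 2.16%, 2.32% and 2.85%. Over all levels, the last of these motifs was in 2.30% of promoters, 5.79% for genes that rose at least 2-fold and 3.15% for genes that fell at least 2-fold, and the E-box in 9.53%, 13.9% and 16.2%. These are shares of promoters, several of which can belong to 1 gene, and a match is not a bound site.

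Promoter stretches are also shown for the 2 genes at each end with a motif before the start: Hspa1a at chr17:34972209-34972233 (minus strand), Hsph1 at chr5:149636369-149636478 (minus strand), Cd36 at chr5:17836077-17836101 (minus strand) and Hbq1a at chr11:32299855-32299934 (plus strand). Capitals mark CCAAT or its reverse complement in all 4, and the antioxidant response letters as well in Hsph1 and Hbq1a.
Hspa1a: cggctcgctgATTGGcccagcggag
Hsph1: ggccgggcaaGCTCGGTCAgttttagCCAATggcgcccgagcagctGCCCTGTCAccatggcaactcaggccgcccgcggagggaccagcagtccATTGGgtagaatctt
Cd36: ttgggacagaCCAATcagttcccta
Hbq1a: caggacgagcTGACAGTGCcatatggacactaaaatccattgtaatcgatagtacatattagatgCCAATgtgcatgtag

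Changes were spread over the genome. Over the 20 chromosomes with at least 100 measured genes, 6.25% to 9.79% of genes rose and 3.81% to 7.19% fell. Within 10 Mb of the beta-globin genes on chromosome 7, globins left out, 11 of 155 genes rose (7.10%) and 12 fell (7.74%), against 7.29% and 4.50% of 933 genes on the rest of that chromosome. The flanks of the deletion can carry 129SV sequence, and probe mismatch there cannot be told apart from a change in level.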

How the data were processed

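The values are the deposited log2 values of a mouse Affymetrix array, which the authors made with MAS5, per the submitters' processing notes; the scale and the version were not given in the sources used here. Probe sets were named through the platform's gene table, with symbols checked against RefSeq. Of 28939 probe sets outside the control block, 17742 were kept, each exceeding, on 3 or more of the 9 arrays, the array's 40th percentile (the low-value floor). The fit gave each genotype 1 mean and used limma 3.58.1 (lmFit and eBayes, whose prior followed the mean level) under R 4.3.3. Benjamini-Hochberg adjustment ran over all 17742. Every adjusted p is from that fit, and "rose" and "fell" mean an adjusted p under 0.05. With 3 arrays a group, the number of arrays limits the precision.

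The members, the process lists and the naming rule were chosen with earlier results of these data known. The rule names up to 4 members of a list by smallest adjusted p, places 9 to 20 by size, the largest changes in level bins 1, 5 and 10, the 10 smallest adjusted p-values and the leading symbol groups; further members were named after their values were seen. Same-numbered replicates were checked for pairing by the correlation of their deviations from the group means (0.193, 0.056 and 0.251) and were not treated as pairs. Alternatives were other filters, scalings, priors, array weights, a replicate block and leaving out arrays. A process list and a promoter stretch are not reported here.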

Additional observations from a re-analysis of the deposited data

Results flagged for a closer look

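Of 2764 kept probe sets without a listed gene, 198 passed the test between Th3/Th3 and wild type, 97 higher (3.51%) and 101 lower (3.65%). They are outside all counts of genes above, and their shares are below those of annotated probe sets (8.01% and 5.23%). Which transcripts they measure is not known here.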

How the results depend on the processing

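Against a 1.5-fold minimum 99 probe sets were higher and 79 lower in Th3/Th3. Leaving out 1 array gave 766 to 1297 higher and 495 to 796 lower, 1.27% to 3.60% called in level bin 1, and, of bright long genes, 16.7% to 22.9% lower and 1.95% to 5.60% higher. The lowest counts came without wild type replicate 1 (higher) and wild type replicate 3 (lower). Without Th3/Th3 replicate 1 and Th3/+ replicate 1 together, 3.81% were called in bin 1 and 6.51% of bright long genes were higher. With the level taken from the Th3/Th3 arrays these were 1.34% and 6.98%. With the replicate block, 1332 were higher and 909 lower, and no pairing is assumed since the replicate numbers are only shared numbers. Of the calls, 60.5% were higher, against 52.5% with quantile normalization, 51.3% with centred medians and 54.5% with cyclic loess. Over the named genes and alternatives, 3760 calls were kept, 413 were lost, 174 of them against the 1.5-fold minimum, and 0 reversed.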
